A study of Homo sapiens with 8 samples.

Results

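The collagen and laminin genes are the genes whose symbol is COL, a number, A and a number, or LAMA, LAMB or LAMC and a number. The arrays held probes for 56 of them, 44 collagens and 12 laminins, among 20296 genes in all. They were measured in MCF10A, a non-tumorigenic line of human mammary epithelial cells, to find genes that respond to p53 after DNA damage. The 8 arrays were 1 array each of p53+/+ cells without doxorubicin at 0 h and 12, 24 and 48 h after doxorubicin (adriamycin, ADR), and of p53-/- cells at the same times. Treated cells of both genotypes received the drug for 2 h at 0.5 µg/ml per the labels, while the methods of the study state another dose. All 8 samples shared the MCF10A background, and how the p53-/- line was made, or whether it is 1 clone, is not given in the sources used here.

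Laminins are trimers of an alpha, a beta and a gamma chain that self-assemble under epithelia, where type IV collagen forms the second network of the basement membrane. Basal epithelial cells fasten themselves to this sheet with hemidesmosomes, in which the transmembrane collagen XVII meets laminin-332, and anchoring fibrils of collagen VII tie the sheet to the stroma. Fibrillar, fibril-associated and beaded filament collagens build the interstitial matrix and are made mainly by mesenchymal cells.

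Levels below are the log2 processed signal of a gene's probe minus the log2 75th percentile of that array, so a level can be followed across arrays but not from one gene to another. Between 49.8% and 62.9% of the probes of an array were well above background by the scanner software's flag. The lowest level well above background ran from -5.698 to -4.504, a probe below it has only a bound, and folds against it are written "at least". With 1 array per condition there was no replicate error. The SD between 10 spots of the same probe ran from 0.0626 for bright probes to 0.426 for dim ones and covers printing and hybridization only. Of the 56 genes, 45 were well above background on at least 1 array and 27 on all 8.

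The labels were checked on CDKN1A, the p53 target that encodes the inhibitor p21. Its level in p53+/+ cells was -1.14 at 0 h and 2.54, 2.63 and 2.70 after ADR, against -2.97, -0.96, -0.64 and -0.48 in p53-/- cells. The array labelled p53+/+ 0 h stood close to the p53-/- 0 h array for the collagens and laminins. Over the 40 with a value, the median absolute difference at 0 h was 0.20, against 0.29 over 13860 genes. For the 12 called between treated genotypes by size, the median was 0.08 and the largest difference 0.90. On the p53+/+ 0 h array 11 of the 12 were nearer to the treated p53-/- level. These 12 were picked for a treated difference, so the count cannot show whether the 0 h label is right. Earlier results of these data had put the label of the p53+/+ 0 h array in doubt. Changes in p53+/+ cells are therefore given against both 0 h arrays, while the comparison of treated cells uses neither. As both arrays were close for these genes, a call against both is not independent support. If the label is wrong, neither array is an untreated p53+/+ baseline, and changes from 0 h may hold the difference between genotypes.

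In treated cells, the laminin and hemidesmosome genes LAMA3 and COL17A1 were higher in p53+/+ than in p53-/- cells, together with LAMA1, LAMC3, COL4A5, COL4A6 and COL2A1. The interstitial collagens COL6A1, COL6A2, COL12A1 and COL1A1 were lower. By the size rule, which asks for at least a 2-fold difference in 1 direction at all 3 times, 8 of 45 tested genes were higher and 4 were lower. Of all 15669 genes tested, 6.34% were higher and 4.96% lower. In the limma fit of the 6 treated arrays, where time points stand in for replicates and p describes the difference against the movement over time, 10 of 45 genes were higher and 6 lower at an adjusted p of 0.05, where 11.5% and 9.39% of all genes passed. COL27A1 and LAMB3 were the higher genes, and COL6A3 and COL8A1 the lower genes, that passed limma alone. With time point as a block, limma called 8 genes in each direction, lost COL27A1 and LAMB3 and gained COL4A1 and COL4A2. COL2A1, COL1A1, COL6A2 and COL6A3 were not well above background on any treated array of 1 genotype and entered the fit through the other alone. Their p-values rest on measured signals in place of bounds.

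Both counts depended on settings. Without the 24 h arrays limma called 2 genes higher and 1 lower, which were 3 of the same 16. Of all 15499 genes tested in that setting it called 130 higher and 67 lower. Without scaling between arrays the size rule called 5 higher and 8 lower and limma 6 higher and 13 lower, and with quantile normalization limma called 8 in each direction. Over all genes, the share of limma calls that were higher was 55.1%, against 43.7% with scaling on the array medians and 15.3% without scaling. Among collagens and laminins well above background on every treated array, the size rule called 7 higher and 2 lower. Of all 11994 such genes it called 796 higher and 484 lower.

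The mean treated difference, p53+/+ minus p53-/- over the times that gave one, could be computed for 40 of the genes. Its median was 0.15 on the log2 scale, against 0.05 over 14714 genes. Its median absolute size was 0.93 against 0.47, and 50% of the 40 were at least 2-fold apart against 23.3% of all genes. Differences lay on both sides of 0, also within the type IV, fibrillar and other laminin groups, as the plot of treated differences shows.

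**Figure D1:**
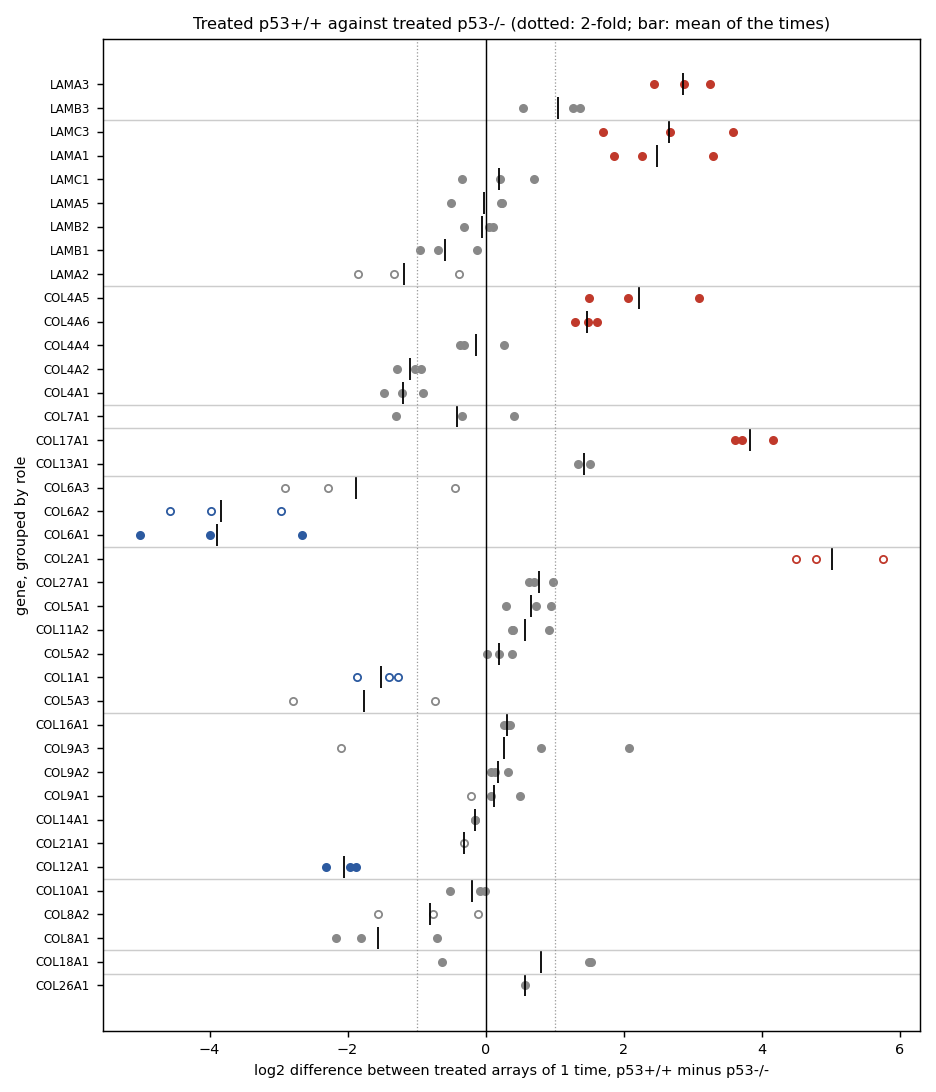
Log2 difference between the treated arrays of the same time (x axis), p53+/+ minus p53-/-, for 39 genes with a value, grouped by role; each point is 1 time, the bar is their mean, and open points are bounds because 1 of the arrays was not well above background. Red and blue genes passed the size rule: COL17A1 and LAMA3 lie wholly to the right and COL6A1 and COL6A2 wholly to the left of the dotted 2-fold lines, while the grey genes do not clear them at all 3 times.

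LAMA3 and LAMB3, chains of laminin-332, and collagen XVII are described first. LAMA3, the alpha chain, had levels of 3.40, 6.03, 6.54 and 5.99 in p53+/+ cells at 0, 12, 24 and 48 h and of 3.33, 3.15, 3.30 and 3.55 in p53-/- cells. All 3 treated p53+/+ arrays lay above all other arrays, and the p53-/- series stayed between 3.15 and 3.55. LAMA3 was 7.38-, 9.50- and 5.43-fold higher in treated p53+/+ cells, a mean log2 difference of 2.86 with an SE of 0.23 (limma adjusted p = 0.00097). From its own 0 h array it rose by 2.63, 3.14 and 2.59 in p53+/+ cells, and by 2.70, 3.21 and 2.66 from the p53-/- 0 h array.

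LAMB3, the beta chain, stood at 7.03, 7.41, 7.64 and 7.80 in p53+/+ cells and at 5.98, 6.87, 6.38 and 6.45 in p53-/- cells. Besides COL5A2, it was the 1 gene of the collagens and laminins already at least 2-fold apart at 0 h, by 1.05. The treated difference was 1.46-fold at 12 h and 2.41- and 2.56-fold later (mean 1.05, SE 0.22, limma adjusted p = 0.0211), so it missed the size rule, and the limma call was lost with time point as a block. The mean change from 0 h was 0.59 in either genotype against its own 0 h array, and 1.64 in p53+/+ cells against the p53-/- 0 h array, which passed the rule.

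COL17A1, the hemidesmosomal transmembrane collagen, had levels of -0.65, 2.89, 3.69 and 3.94 in p53+/+ cells and of -0.63, -0.72, -0.47 and 0.23 in p53-/- cells. The untreated arrays were alike, the treated p53+/+ arrays were all far above the rest, and the p53-/- array at 48 h was the highest of its series. The treated difference was 12.2-, 17.9- and 13.1-fold (mean 3.83, SE 0.37, limma adjusted p = 0.00177). The rise in p53+/+ cells was 11.7-, 20.3- and 24.2-fold from their own 0 h array and 11.5-, 20.0- and 23.8-fold from the p53-/- 0 h array. COL7A1, the anchoring fibril collagen, did not share this: its levels were 3.51, 1.98, 4.05 and 2.95 in p53+/+ cells and 4.05, 3.28, 3.64 and 3.29 in the p53-/- series, crossing between times (mean difference -0.41, SE 0.50, limma adjusted p = 0.615).

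The sequences before the starts of COL17A1 and LAMA3 are shown because these were the hemidesmosome genes with the widest treated differences. They come from RefSeq's promoter table on GRCh38.p14, which held entries for 41 of the 56 genes, while the array design was made on hg19. Capitals mark exact matches on either strand to the p53 half-site consensus in COL17A1 (chr10:104085881-104086130, minus strand) and to the AP-1 motif TGANTCA in LAMA3 (chr18:23872770-23873019, plus strand), and no marked match overlaps another. Each sequence ends on the base before the start of the gene's first entry. The 41 genes had 55 entries, and whether the probe's transcript begins at the start used was not checked.
COL17A1: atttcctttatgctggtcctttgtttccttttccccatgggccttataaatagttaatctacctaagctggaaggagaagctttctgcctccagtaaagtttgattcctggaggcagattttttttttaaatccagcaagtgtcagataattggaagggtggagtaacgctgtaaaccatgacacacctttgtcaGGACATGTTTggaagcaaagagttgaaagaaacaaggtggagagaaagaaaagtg
LAMA3: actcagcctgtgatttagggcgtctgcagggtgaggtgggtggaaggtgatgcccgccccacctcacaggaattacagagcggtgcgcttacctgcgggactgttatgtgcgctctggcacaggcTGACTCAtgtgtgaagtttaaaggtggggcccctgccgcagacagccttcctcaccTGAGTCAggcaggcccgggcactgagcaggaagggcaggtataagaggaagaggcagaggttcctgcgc
The last base of the half-site lies 46 bases before the COL17A1 start. COL17A1 was the 1 gene of the 41 with this match in its window, and 6.63% of all 35116 windows held it. The last bases of the AP-1 matches of LAMA3 lie 119 and 63 bases before the start used. LAMB3 and COL10A1 also held a match, and 7.71% of all windows did. These matches are descriptions of the letters.

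Among the other laminin chains, 2 of 8 tested genes were higher and none lower by either rule. LAMA1, the alpha chain of laminin-111, had levels of -2.08, -0.75, -0.73 and -0.72 in p53+/+ cells and of -2.12, -3.03, -4.03 and -2.57 in p53-/- cells. It rose in p53+/+ cells, by 1.34 on average, and in p53-/- cells its 3 changes were -0.91, -1.91 and -0.45, so that the treated series did not overlap. The treated difference was 4.84-, 9.85- and 3.62-fold (mean 2.48, SE 0.37, limma adjusted p = 0.00753).

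LAMC3, a gamma chain with a narrow tissue range, read -4.30, -2.26, -0.40 and -1.22 in p53+/+ cells and -4.22, -3.95, -3.98 and -3.89 in the p53-/- series. It was near the dim end in every array but the treated p53+/+ ones, which peaked at 24 h. The treated difference was 3.24-, 11.9- and 6.36-fold (mean 2.65, SE 0.45, limma adjusted p = 0.0113). Of its other probes, 1 was well above background on 3 arrays and the other on none.

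The widely expressed chains did not pass either rule. The mean treated differences were -0.02 for LAMA5, -0.59 for LAMB1, -0.05 for LAMB2 and 0.19 for LAMC1, with limma adjusted p-values from 0.177 to 0.969. LAMA2 and LAMA4 were not well above background on the treated p53+/+ arrays, and LAMB4 was on none of the 8. LAMA2 was well above background on every p53-/- array. It was at least 1.3-, 2.51- and 3.61-fold lower in treated p53+/+ cells, and passed neither rule (limma on the measured signals, adjusted p = 0.107).

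**Figure D2:**
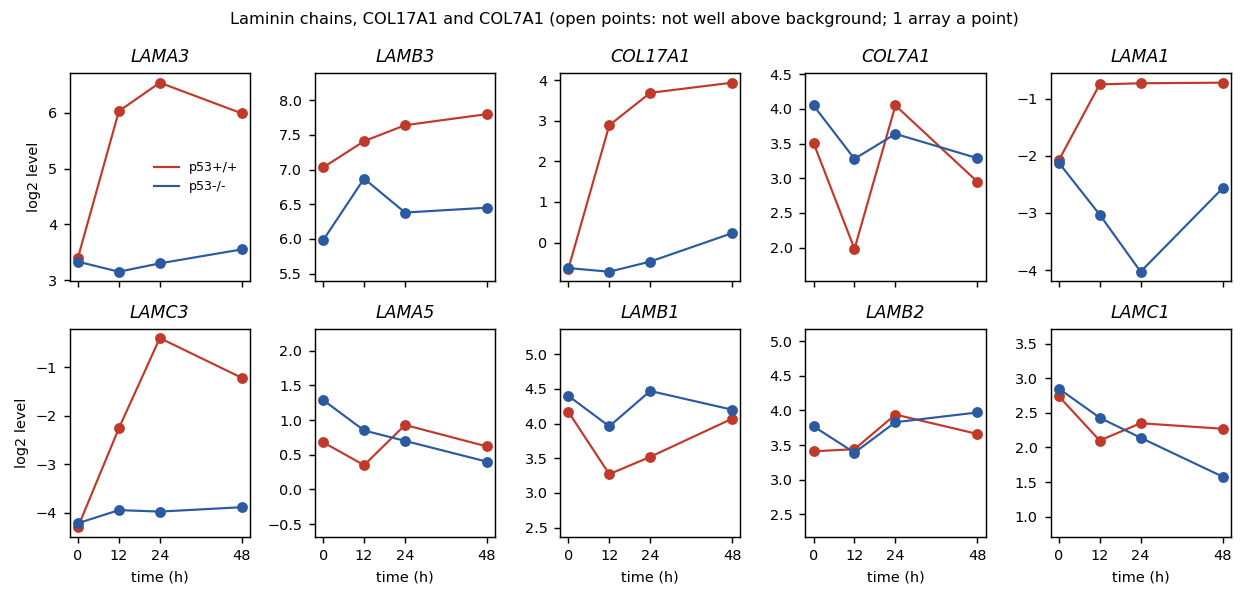
Log2 level (y axis, own scale in each panel) of 8 laminin chains, COL17A1 and COL7A1 against time in hours, in p53+/+ (red) and p53-/- (blue) cells; every point is 1 array and all were well above background. LAMA3 and COL17A1 start together at 0 h, at 3.40 and 3.33 and at -0.65 and -0.63, and part at 12 h, LAMB3 is apart from 0 h on, and COL7A1 and LAMA5 cross.

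The type IV collagens split by gene pair. COL4A1 and COL4A2, the chains of the network found in nearly all basement membranes, fell in p53+/+ cells, whereas COL4A5 and COL4A6, which form a second network in some epithelia, were higher in treated p53+/+ cells. COL4A1 had levels of 2.12, 0.18, 0.09 and -1.25 in p53+/+ cells and of 1.92, 1.65, 1.0 and -0.04 in p53-/- cells. COL4A2 had levels of 5.74, 4.18, 4.09 and 3.20 in p53+/+ cells and of 5.92, 5.47, 5.12 and 4.14 in p53-/- cells. For both genes the level was lower at each later time in p53-/- cells as well, and p53+/+ arrays were lower at every treated time.

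COL4A1 fell 3.85-, 4.08- and 10.3-fold in p53+/+ cells and COL4A2 fell 2.95-, 3.14- and 5.83-fold, and both also passed the size rule against the p53-/- 0 h array. At 48 h in p53-/- cells COL4A1 was 3.89-fold and COL4A2 3.44-fold under its 0 h level. Between treated genotypes neither gene passed: the mean difference was -1.20 (SE 0.55, limma adjusted p = 0.178) for COL4A1 and -1.09 (SE 0.42, adjusted p = 0.126) for COL4A2. With time point as a block in the limma fit both were called lower.

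COL4A5 stood at 1.05, 2.04, 2.41 and 2.24 in p53+/+ cells and at 1.32, 0.55, 0.34 and -0.85 in p53-/- cells. COL4A6 stood at 1.40, 2.61, 3.03 and 2.41 in p53+/+ cells and at 1.62, 0.99, 1.55 and 1.11 in p53-/- cells. Every treated p53+/+ array was above every p53-/- array for both. COL4A5 was 2.82-, 4.18- and 8.53-fold higher in treated p53+/+ cells (mean 2.22, SE 0.38, limma adjusted p = 0.0123) and COL4A6 was 3.07-, 2.79- and 2.47-fold higher (mean 1.47, SE 0.25, limma adjusted p = 0.0117). Without scaling between arrays COL4A6 lost both calls, at a mean of 0.87. Its rise from 0 h passed against its own 0 h array, by 2.30-, 3.08- and 2.01-fold, and not against the p53-/- 0 h array, by 1.98-, 2.66- and 1.73-fold.

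Of the third pair, COL4A3 was on no array well above background, and COL4A4 ranged from -3.57 to -2.67 with no ordered difference (mean -0.14, SE 0.26, limma adjusted p = 0.759).

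**Figure D3:**
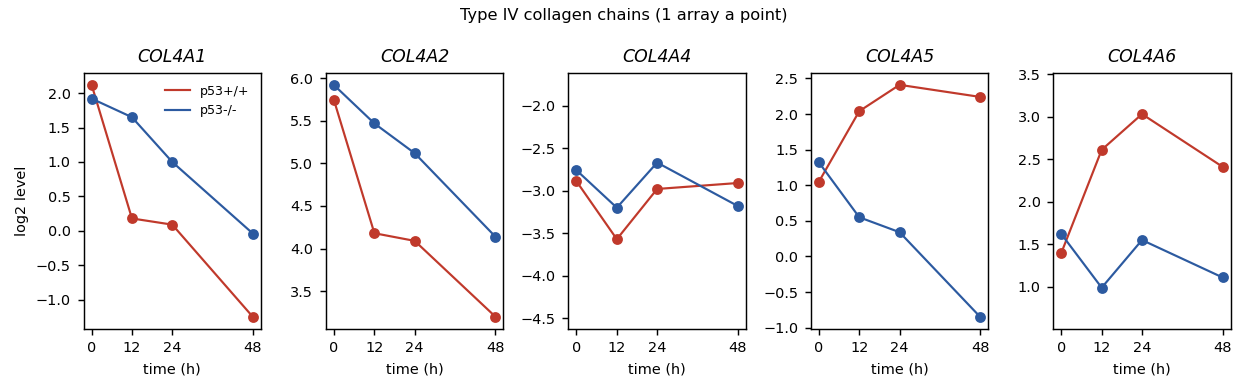
Log2 level (y axis, own scale in each panel) of the 5 measured type IV collagen chains against time in hours, in p53+/+ (red) and p53-/- (blue) cells, 1 array a point. COL4A1 and COL4A2 descend in both series, to -1.25 and 3.20 at 48 h in p53+/+ cells, whereas COL4A5 and COL4A6 lie above the p53-/- series at every treated time.

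The starts of each of these pairs lie head to head, and the sequence between them is shown because the members of a pair differed alike. The starts of COL4A1 and COL4A2 have 126 bases between them, and those of COL4A5 and COL4A6 have 379, of which the 121 held by both windows are printed. COL4A6 has a further start in the table. Both are on the plus strand of GRCh38.p14, at chr13:110307158-110307283 and chrX:108439588-108439708, and capitals mark the GC box GGGCGG. Of all windows, which are longer than these stretches, 45% held it on either strand. The stretch printed for COL4A6 and COL4A5 did not hold it, while a full window of COL4A6 did.
COL4A1/COL4A2: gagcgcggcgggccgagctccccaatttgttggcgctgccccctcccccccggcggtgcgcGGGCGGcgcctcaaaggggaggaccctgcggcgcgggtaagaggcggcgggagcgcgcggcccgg
COL4A6/COL4A5: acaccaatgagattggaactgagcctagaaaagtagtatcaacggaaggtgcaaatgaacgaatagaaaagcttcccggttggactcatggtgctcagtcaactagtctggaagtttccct
In the order of protein-coding genes of that assembly, 9 pairs of collagens or laminins are next to each other, and both genes of a pair had a mean treated difference in, among others, COL4A1 and COL4A2, COL4A5 and COL4A6, and COL6A1 and COL6A2 at -3.89 and a bound of -3.84, with the same sign in each of these pairs.

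The beaded filament collagen VI showed the deepest falls. COL6A1 had levels of 4.42, -1.20, -0.43 and -0.20 in p53+/+ cells and of 4.22, 3.81, 3.57 and 2.47 in p53-/- cells. The untreated arrays were alike, and all treated p53+/+ arrays were far below the lowest p53-/- array. COL6A1 was 32.2-, 15.9- and 6.34-fold lower in treated p53+/+ cells (mean -3.89, SE 0.43, limma adjusted p = 0.00279), and within p53+/+ cells it fell 49.1-, 28.8- and 24.6-fold from their own 0 h array and 42.7-, 25.0- and 21.3-fold from the p53-/- 0 h array. In p53-/- cells it was 3.37-fold down at 48 h, which is when the genotypes were closest.

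COL6A2 had levels of 0.12 at 0 h and, in treated p53+/+ cells, of -6.70, -6.45 and -5.97, which were not well above background. In p53-/- cells it read 0.17, -0.20, -0.53 and -1.66. It was at least 23.8-, 15.8- and 7.83-fold lower in treated p53+/+ cells (limma on the measured signals, adjusted p = 0.000766). Its other probe differed in the same direction. COL6A3 was likewise not well above background in treated p53+/+ cells, at -5.16, -5.01 and -6.48 against -1.87, -2.23 and -4.17 in p53-/- cells. It passed limma on the measured signals (adjusted p = 0.0361) and missed the size rule at 48 h, where the bound of the difference was -0.45. From 0 h all 3 collagen VI genes fell in p53+/+ cells by the size rule against either 0 h array. COL6A5 was well above background on 1 array, and COL6A6 on none.

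Of the fibrillar collagens, COL2A1 and COL1A1 went opposite ways. COL2A1, the cartilage collagen, was not well above background at 0 h in either genotype (-7.19 and -6.96), nor in treated p53-/- cells (-7.48, -5.73 and -5.78). In treated p53+/+ cells it read -0.74, 0.18 and -1.20. It was thus well above background on the treated p53+/+ arrays alone. There it was at least 27.7-, 54.2- and 22.7-fold higher than in treated p53-/- cells (limma on the measured signals, adjusted p = 0.00201). Against p53+/+ cells at 0 h it was at least 21.4-, 40.6- and 15.6-fold higher. COL2A1 entered the limma fit through those arrays alone, and its p-value rests on p53-/- signals that were not well above background.

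COL1A1, a chain of type I collagen, had levels of -3.21 at 0 h and -5.43, -5.59 and -6.23 in treated p53+/+ cells, the latter not well above background, and of -2.31, -2.92, -3.11 and -3.35 in p53-/- cells. It was at least 3.62-, 2.63- and 2.42-fold lower in treated p53+/+ cells (limma on the measured signals, adjusted p = 0.00222). The 0 h arrays differed by 0.90, and the normexp background correction removed the size call. COL1A2 and COL3A1 were on no array well above background.

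COL5A3, a minor fibrillar chain, fell in p53+/+ cells by at least 7.03-, 5.83- and 6.34-fold, from -1.96 to values not well above background. In p53-/- cells it read -2.71, -1.98, -3.77 and -5.61, the last not well above background, so that the difference was at least 6.93-fold at 12 h, at least 1.67-fold at 24 h and without a bound at 48 h (limma adjusted p = 0.0532). COL27A1 stood at -1.40, -0.70, -0.63 and -0.46 in p53+/+ cells and between -1.45 and -1.33 in p53-/- cells, under 2-fold at each time (mean 0.77, SE 0.17, limma adjusted p = 0.0264, a call lost with time point as a block). COL5A2 differed at 0 h, at -2.81 in p53+/+ and -1.68 in p53-/- cells, and not after treatment (mean 0.20, limma adjusted p = 0.589).

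COL12A1, a fibril-associated collagen, had levels of 3.40, 1.04, 1.28 and 0.72 in p53+/+ cells and of 3.44, 3.36, 3.25 and 2.60 in p53-/- cells. The untreated arrays were alike and the treated series did not overlap. It was 4.98-, 3.90- and 3.68-fold lower in treated p53+/+ cells (mean -2.05, SE 0.27, limma adjusted p = 0.00515), and its other probe differed by -1.73. The other fibril-associated genes had mean differences between -0.32 and 0.31, and none passed. For COL9A3 the mean of 0.26 joins opposite values, since it was 4.20-fold higher in p53+/+ cells at 12 h, 1.74-fold higher at 24 h and at least 4.26-fold lower at 48 h.

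COL8A1 and COL8A2 are short-chain collagens of vessel and corneal membranes. COL8A1 read 5.27, 2.93, 2.73 and 3.02 in p53+/+ cells and 5.24, 5.10, 4.53 and 3.72 in the p53-/- series. The genotypes were far apart at 12 and 24 h and drew together at 48 h, at differences of -2.17, -1.80 and -0.70 (mean -1.56, SE 0.35, limma adjusted p = 0.0288). COL8A2 fell in p53+/+ cells from -3.17 to values not well above background and in p53-/- cells read -3.17, -3.21, -3.69 and -4.52 (limma adjusted p = 0.111). COL10A1 did not pass (mean -0.20).

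The remaining genes were called by neither rule between treated genotypes. COL18A1, the source of endostatin, crossed between times, at 1.63, 3.72 and 2.27 in treated p53+/+ cells against 2.27, 2.20 and 0.77 (mean 0.80, SE 0.63, limma adjusted p = 0.423). COL13A1 had a mean difference of 1.43 over the 24 and 48 h arrays, and those of COL5A1, COL11A2 and COL26A1 lay between 0.57 and 0.66. COL20A1, COL23A1, COL28A1, COL6A5 and LAMA4 gave no difference above background. The 11 genes on no array well above background were COL11A1, COL15A1, COL19A1, COL1A2, COL22A1, COL24A1, COL25A1, COL3A1, COL4A3, COL6A6 and LAMB4.

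**Figure D4:**
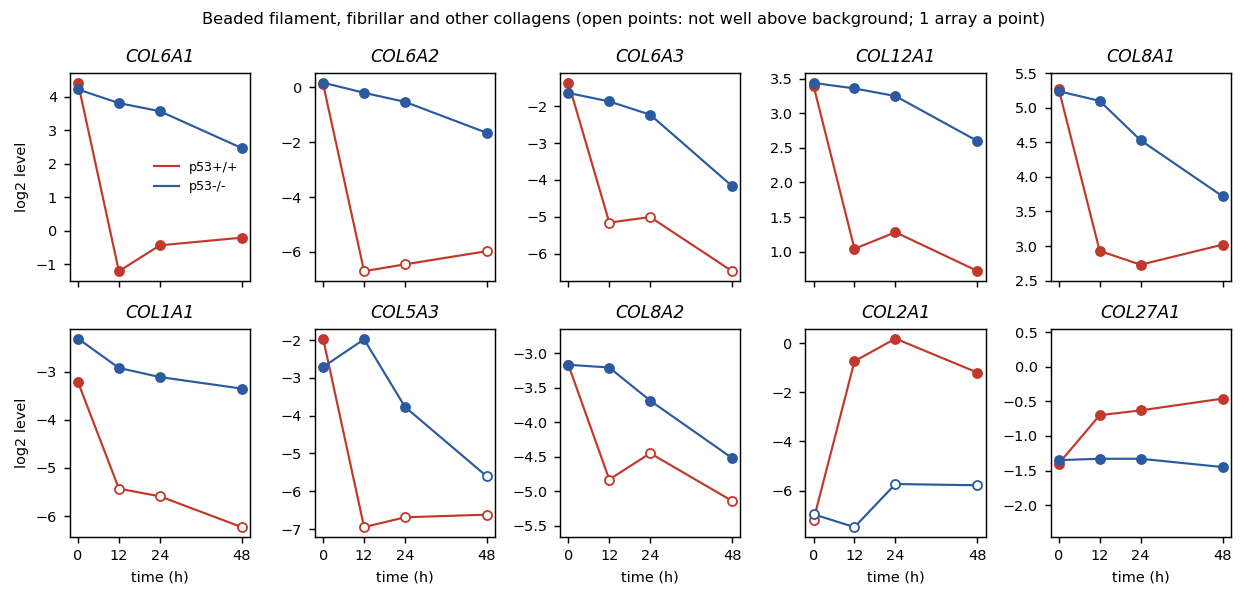
Log2 level (y axis, own scale in each panel) of 10 beaded filament, fibrillar, fibril-associated and short-chain collagens against time in hours, in p53+/+ (red) and p53-/- (blue) cells, 1 array a point, open where not well above background. COL6A1 drops from 4.42 to -1.20 by 12 h in p53+/+ cells, COL12A1, COL8A1 and the other collagen VI genes also part at 12 h, and COL2A1 and COL27A1 run above the p53-/- series.

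Within each genotype, 6 of 40 tested genes rose and 10 fell at least 2-fold at all 3 times in p53+/+ cells, where 8.89% of all genes rose and 6.04% fell. Those that rose were COL17A1, COL2A1, COL4A6, LAMA1, LAMA3 and LAMC3. The call of COL4A6 was lost under median scaling, quantile normalization, no scaling and normexp, and that of LAMA1 without scaling, at a mean of 0.93. Those that fell were COL12A1, COL1A1, COL4A1, COL4A2, COL5A3, the 3 collagen VI genes, COL8A1 and COL8A2. Against the p53-/- 0 h array, 6 of 41 rose and the same 10 fell (8.83% and 6.38% of all genes), with LAMB3 in and COL4A6 out.

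In p53-/- cells none of 44 tested genes rose and 2 fell at all 3 times (2.2% and 2% of all genes). The 2 were COL13A1, a transmembrane collagen, and COL28A1. COL13A1 read -3.77, -5.57, -5.07 and -4.87 in p53-/- cells, and the p53+/+ levels were -3.93, -5.29, -3.56 and -3.53, with both 12 h arrays not well above background. COL28A1 was not well above background on 2 of the 3 treated p53-/- arrays and on no treated p53+/+ array was it above, so its falls at 12 and 24 h are bounds.

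The p53-/- series moved most at 48 h. At that time alone, a comparison chosen after the values were seen, 14 of 44 genes were at least 2-fold under their 0 h level and 4 above it, where 7.31% of all genes were lower and 10.6% higher. Of these 14, 9 were among the 10 genes that fell in p53+/+ cells, and COL12A1, the other of the 10, was 1.80-fold down. The same overlap was not counted over all genes, so it cannot be called particular to collagens and laminins. The 4 were COL10A1, COL16A1, COL9A3 and LAMA2, also named after their values were seen, and COL16A1 was higher at 48 h in both genotypes, going from 0.26 to 2.41 in p53+/+ and from 0.31 to 2.08 in p53-/- cells. Its other probe, also well above background on all arrays, did not show this, at -1.94 and -2.06 in p53+/+ cells.

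At 0 h, LAMB3 was at least 2-fold higher and COL5A2 at least 2-fold lower in p53+/+ cells among 40 genes tested (3.27% and 4.27% of all genes were). The heat map of measured genes shows the 0 h columns of both genotypes beside each other.

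**Figure D5:**
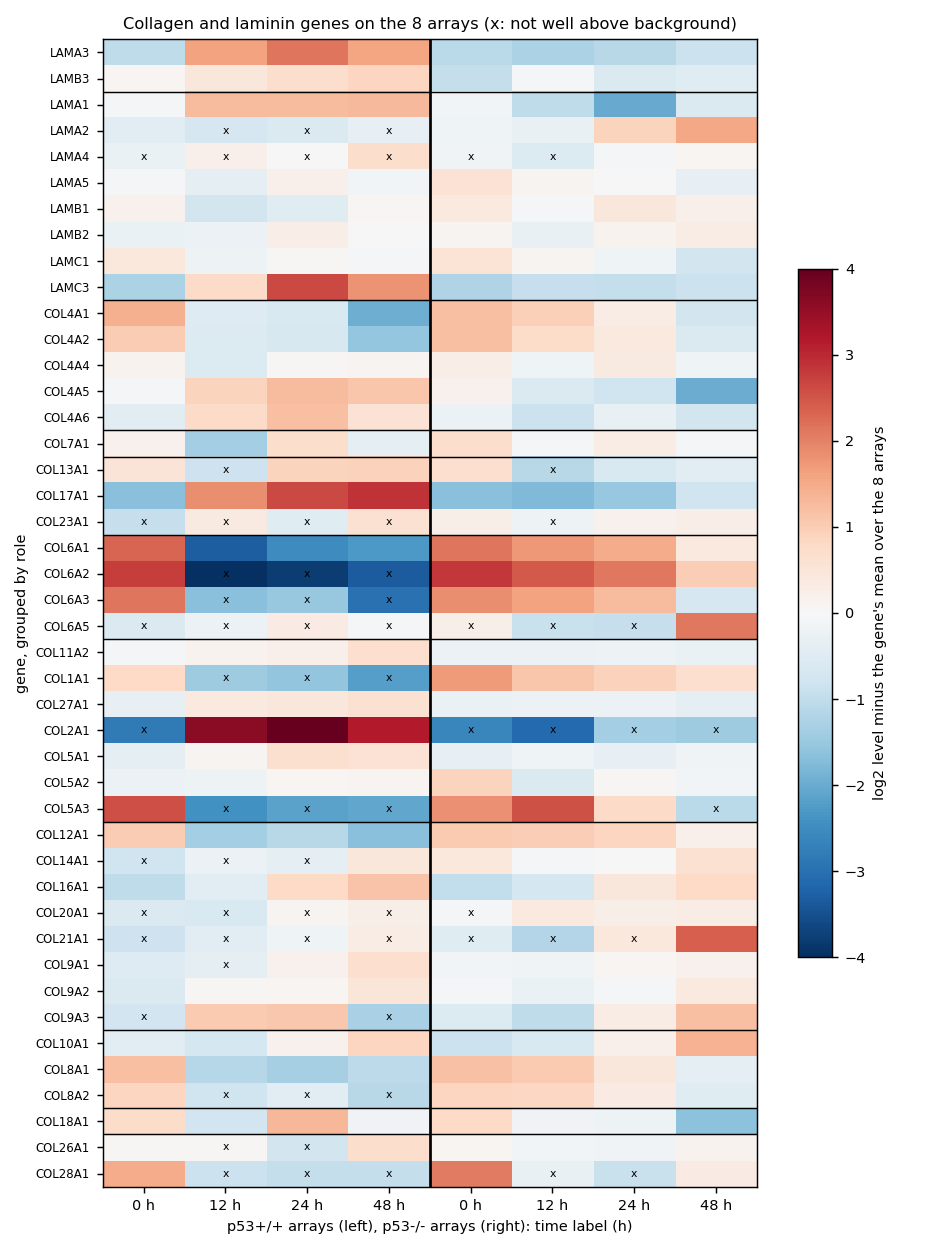
Log2 level minus the gene's own mean over the 8 arrays (colour, red above and blue below the mean) for 44 genes well above background on at least 1 array (rows, grouped by role), with p53+/+ arrays on the left and p53-/- arrays on the right by time in hours; an x marks an array on which the gene was not well above background. The 0 h columns look alike in both genotypes, and the collagen VI rows turn from red to blue at 12 h in p53+/+ cells while COL17A1, LAMA3 and COL2A1 turn from blue to red.

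Genes that process or bind these proteins were taken from 2 lists. Of 26 tested collagen and matrix processing genes, 2 were higher in treated p53+/+ cells and 4 lower by the size rule, where 6.34% and 4.96% of all genes were, and 3 and 5 by limma, where 11.5% and 9.39% were. The higher ones were LOXL1, a lysyl oxidase, at least 25.3-fold by its mean difference of 4.66, and P3H2, a prolyl 3-hydroxylase, at 3.22. The lower ones were P3H3 (-2.81), the cross-linking oxidases LOXL2 (-2.64) and LOX (-2.50), and PCOLCE (a bound of -1.70, with 1 array not well above background), an enhancer of procollagen cleavage. LOX read 0.89, -1.40, -2.10 and -1.59 in p53+/+ cells and 1.35, 0.74, 0.72 and 0.96 in the p53-/- series.

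Of 15 tested basement membrane and hemidesmosome partners, 2 were higher and none lower by the size rule, where 6.34% and 4.96% of all genes were. By limma 5 were higher and none lower, where 11.5% and 9.39% of all genes were. SPARC, a collagen-binding matricellular protein, read -4.19, 1.79, 1.89 and 1.45 in p53+/+ cells and -3.61, -4.35, -4.35 and -3.83 in the p53-/- series, a mean difference of 5.89 (SE 0.23, limma adjusted p = 0.000112). HSPG2, the basement membrane proteoglycan perlecan, differed by 2.19. AGRN (1.36), ITGA6 (1.01) and ITGB4 (1.90), the last pair encoding the hemidesmosomal integrin, passed limma alone. NID1 and NID2, the linkers of laminin and type IV collagen, gave no difference above background.

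Markers of epithelial and mesenchymal cells moved with these groups. Marker calls here and below are by the size rule, by which 6.34% of all genes were higher and 4.96% lower. Of 5 basal mammary markers 4 were higher in treated p53+/+ cells, and the log2 of their summed signals was 7.32 to 7.72, against 5.24 to 5.84 in treated p53-/- cells. Of 4 epithelial markers 2 were higher (CDH1 by 3.98), with sums of 6.14 to 6.65 against 5.30 to 6.02. Of 6 markers of the mesenchymal state 3 were lower (FN1 by a mean of -3.14), with sums of 6.69 to 7.10 against 7.43 to 7.51. KRT18 (mean 0.64) and VIM (mean -0.54), the brightest of the epithelial and mesenchymal lists, carry most of those sums and were called by neither rule.

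Of 5 tested fibroblast markers 2 were lower, DCN by a mean of -3.67 and LUM by a mean bound of -2.62, with sums of 3.40 to 3.89 against 5.90 to 6.15, and THY1 was on no array well above background. FAP, well above background on all 8 arrays, had a mean of 0.39 and was 2.61-fold higher in p53+/+ cells at 48 h. DCN, the brightest of the list, carries most of the sum. Of 4 endothelial markers 1 was lower, with sums of -2.48 to -2.13 against -1.48 to -0.98. The part of these cell states in the collagen and laminin differences was not tested, and in bulk RNA fewer cells of a type and less RNA per cell cannot be told apart.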

How the data were processed

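RNA of 8 samples, 1 per genotype and time, had been hybridized in Cy3 to 1-colour Agilent SurePrint G3 Human GE arrays. The authors deposited the scanner output of Agilent Feature Extraction 10.7.3.1, whose processed signal is a background-corrected intensity; the deposited series table held the same intensity values. Non-control spots without outlier flags were averaged per probe as log2 processed signal minus the 75th percentile of the array. Of 42391 probes, 64.2% were named by RefSeq accession (GRCh38.p14) and none by symbol. A gene took its brightest probe by the mean over the 8 arrays. Limma 3.58.1 (lmFit, eBayes; R 4.3.3) was fitted to 28490 probes well above background on at least 1 of the 6 treated arrays, with 4 residual degrees of freedom and Benjamini-Hochberg adjustment. The scripts were tested on simulated data. Named were genes called in any comparison and LAMA3, LAMB3 and the type IV, VII and XVII chains. Counts include 1 gene whose values are not reported here. Members and lists were chosen with earlier results of these data known. Alternatives covered scaling, normexp (offset 50), probe choice, background filter, fold, times and baseline.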

Additional observations from a re-analysis of the deposited data

Results flagged for a closer look

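In 4 genes the 3 changes from 0 h were all of one sign in p53+/+ cells and all of the other sign in p53-/- cells, each genotype against its own 0 h array. With 1 array per condition this difference was not tested. The mean p53+/+ change minus the mean p53-/- change was 2.48 on the log2 scale for COL4A5, 2.44 for LAMA1, 1.68 for COL4A6 and 1.33 for COL5A2. For COL5A2 the 0 h arrays themselves differed by -1.13, and its treated levels differed by a mean of 0.20.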

How the results depend on the processing

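No sign turned in any of 128 treated differences and 95 p53+/+ changes of called genes recomputed under the alternatives. Without scaling between arrays the median treated difference of all genes moved from 0.05 to -0.51 and that of the collagens and laminins from 0.15 to -0.41. The genes higher and lower in treated p53+/+ cells then numbered 5 and 8 by size (8 and 4 with scaling) and 6 and 13 by limma (10 and 6), 1 gene fell in p53-/- cells in place of 2, and at 48 h alone 7 rose in place of 4. Scaling on array medians moved the median of all genes to -0.08, and limma calls were lost for genes that included COL27A1. Quantile normalization cost limma calls that included LAMB3. With genes well above background on every array compared, the lower genes numbered 2 by size and 3 by limma, the genes that fell in p53+/+ cells 5 in place of 10, and in p53-/- cells 0. A 3-fold rule gave 5 higher genes, 1 that fell in p53-/- cells and 9 lower at 48 h. Counting at least 2 of 3 times gave 9 lower genes, and 3 that rose and 4 that fell in p53-/- cells. Normexp left 0 that fell in p53-/- cells and 2 that rose at 48 h. The lower genes by size numbered 7 without the 48 h arrays, and limma without the 24 h arrays called 2 higher (COL2A1 and LAMA3) and 1 lower (COL6A2). The causes were not tested. By construction, a higher fold or a stricter background filter can only remove size calls, and dropping a time can only add them. Mean treated differences moved by over 1.5 times for COL1A1 (-0.55), COL2A1 (3.15), COL5A3 (-0.89), COL6A2 (-2.33), COL6A3 (-1.18), COL8A2 (-0.30) and COL13A1 (0.90) under normexp, for LAMB3 (0.69) under quantile normalization, for COL6A3 (-1.22) with the mean of its probes, and for COL27A1 (0.17), COL4A2 (-1.69), COL4A6 (0.87), COL8A2 (-1.41), COL13A1 (0.76) and LAMB3 (0.46) without scaling, for COL5A3 (-0.74) and COL8A2 (-0.43) without the 12 h arrays and for COL5A3 (-2.79) without the 24 h arrays. Under normexp, called changes from 0 h moved as much for COL1A1 (-0.57), COL5A3 (-1.48), COL6A2 (-3.10), COL6A3 (-1.75) and COL8A2 (-0.53) in p53+/+ cells and for COL13A1 (-0.69) and COL28A1 (-0.89) in p53-/- cells. The 48 h comparison was chosen after seeing the data. With 1 array per condition, no value has a culture-to-culture error, and dim probes limit COL1A1, COL2A1, COL5A3, COL6A2 and COL6A3 to bounds. The genotypes were paired by time in the limma fit with time point as a block, which called 8 higher and 8 lower. No analysis paired by replicate number was possible because each group holds 1 sample.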
